A study of Bos taurus with 9 samples.

Results

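Prostaglandins are lipid signals made from arachidonic acid, which phospholipases free from membranes and the cyclooxygenases PTGS1 and PTGS2 convert to prostaglandin H2. Terminal synthases then turn prostaglandin H2 into prostaglandin E2 or prostaglandin F2α, transporters carry the products across the cell membrane, HPGD inactivates them, and G protein-coupled receptors read them. In the ruminant uterus, prostaglandin F2α from the endometrial epithelium is the signal that ends the life of the corpus luteum, and the balance between prostaglandins E2 and F2α is tied to early pregnancy. The genes described here are 10 named genes of this pathway, taken by symbol whatever their values: PTGS1, PTGS2, PTGES, PTGES3, AKR1B1, HPGD, SLCO2A1, ABCC4, PTGFR and PTGER4. Of the 20679 genes listed, 9 carried these symbols, and ABCC4 was not analysed here.

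Expression was measured by RNA-seq in bovine uterine gland fragments after 5 days of 3D culture, with 3 libraries per group. The fragments were isolated with enzymes from endometrium of abattoir uteri in the luteal stage that the study calls stage III, and are pieces of multicellular glands and not a cell line. All 3 groups were cultured in Matrigel and in DMEM/F12 with bovine serum albumin, ascorbic acid, transferrin, sodium selenite and insulin. In the CYST group no epidermal growth factor (EGF) was added and the fragments formed cysts. In the MAT group EGF was added (5 ng/ml, a dose that the labels do not give) and the fragments formed tubular uterine gland-like (UG-LIKE) structures. In the MAT + COL group EGF was added and the Matrigel also held collagen I, at 0.5 mg/ml. The samples carry replicate numbers 1 to 3 in every group, and the labels do not say what a number marks.

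Between 6568968 and 17948600 reads were counted on genes per library, and the MAT + COL libraries (median 17808510) were deeper than most CYST (median 9958018) and MAT libraries (median 12938664). The labels call the samples epithelial cells. The epithelial markers EPCAM, CDH1, KRT8, KRT18, KRT19 and FOXA2 were detected in every library, with a summed level of 16649 to 18423 TPM (a level scaled to gene length and to library size) in CYST, 27613 to 43306 in MAT and 28181 to 38520 in MAT + COL. FOXA2, a transcription factor of uterine glands, was the lowest of them, and KRT8 and KRT19 made up most of the sum (8884 and 8079 of 18423 TPM in CYST replicate 1). All 8 stromal markers (VIM, DCN, LUM, COL1A1, COL1A2, COL3A1, PDGFRA and PDGFRB) were also above 0 in every library, and their summed level of 1191 to 4798 TPM was highest in replicate 3 of each group. Endothelial, immune, smooth muscle and ciliated cell markers summed to at most 26.1, 48.3, 83.8 and 92.5 TPM, and the T cell marker CD3E had no reads in 6 of 9 libraries. In bulk RNA, fewer cells of a type and less RNA per cell cannot be told apart.

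The terminal synthases AKR1B1 and PTGES3 had the highest levels in replicates 1 and 2 of every group, and the level of PTGS2 depended on the replicate number. Over the 9 libraries the mean level was 574 TPM for PTGES3, 559.7 TPM for AKR1B1 and 389 TPM for PTGS2, above 99.0%, 98.9% and 98.2% of all genes listed. The order of the means of PTGES3 and AKR1B1 changed with the group: AKR1B1 was the higher in CYST (748 to 788 against 631 to 691 TPM), and PTGES3 had the higher mean in MAT (504 ± 82.9 against 418 ± 52.6 TPM, SD, n = 3). In MAT replicate 1, AKR1B1 was still the higher (430.5 against 409 TPM). The mean of PTGS2 was carried by replicate 3 (928 TPM over its 3 libraries, against 80.5 and 158 TPM for replicates 1 and 2), and in CYST replicates 1 and 2 PTGS2 was below HPGD. HPGD (69.5 ± 31.8 TPM, SD, n = 9), PTGES (43.2 ± 30.0), PTGS1 (26.9 ± 25.3) and SLCO2A1 (18.9 ± 14.8) followed, each within 1 SD of its neighbour in this order. The receptors PTGER4 and PTGFR were lowest, with 1.14 ± 0.708 TPM for PTGER4 and 0.0319 ± 0.0696 TPM for PTGFR.

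**Figure D1:**
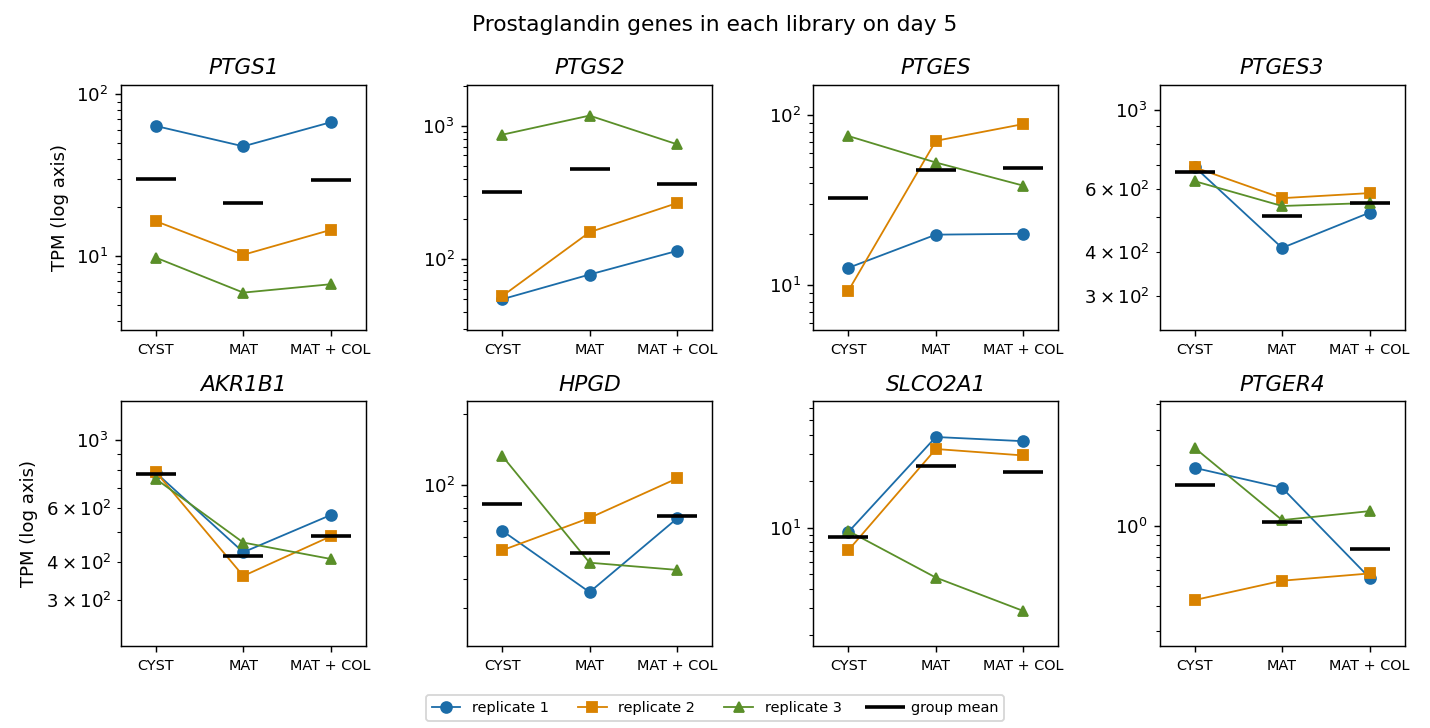
Levels of 8 prostaglandin genes in TPM (log axes, 1 panel per gene) in CYST, MAT and MAT + COL; points are libraries, lines join libraries with the same replicate number, and black bars are group means of 3 libraries. AKR1B1 sits between 748 and 788 TPM in CYST and between 360.1 and 569.7 TPM in the other groups, PTGS1 and PTGS2 are ordered by replicate number in every group, and SLCO2A1 splits replicates 1 and 2 from replicate 3 in the groups with EGF.

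Between MAT and CYST, which asks how EGF changed these genes, AKR1B1 was lower with EGF, and its call depended on the method and on whether the replicate number entered the fit. The other 7 genes tested did not pass edgeR's test on the 6 libraries in either fit. The counts were compared with edgeR's quasi-likelihood test, adjusted over 12074 genes with enough reads to be tested, with and without the replicate number as a block. Of the 8 genes that could be tested, 0 passed an adjusted p of 0.05 without the block (1.79% of all genes tested) and 1 with it (10.6% of all genes tested). At an unadjusted p under 0.05 the counts were 2 (20.7% of all genes tested) and 4 (28% of all genes tested). The median Log2FC of the 8 genes was -0.46, with 3 positive and 5 negative values, and that of all genes tested was 0.012. Of the 8 genes, 2 had TPM ranges that did not overlap between the groups, AKR1B1 and PTGES3, both lower with EGF (11.8% of all genes tested were lower without overlap, and 23.7% did not overlap in either direction). The p-values measure the spread between these samples, for which no label names the animal or culture.

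AKR1B1 (ENSBTAG00000009902, chromosome 4 from 98115290 to 98132148 of ARS-UCD2.0, minus strand) encodes an aldo-keto reductase that serves as a prostaglandin F synthase in bovine endometrium. It had 784, 788 and 748 TPM in CYST replicates 1, 2 and 3. It had 430.5, 360.1 and 463 TPM in the MAT replicates and 569.7, 485 and 409 TPM in the MAT + COL replicates. All 3 CYST libraries lay above all 6 libraries with EGF, and MAT and MAT + COL overlapped. The Log2FC of MAT over CYST was -0.90 (standard error, SE, 0.19, edgeR adjusted p = 0.0569) without the block and -0.91 (SE 0.16, adjusted p = 0.0179) with it, or 0.533 times the level in CYST. Without the block, AKR1B1 was also called by DESeq2 (adjusted p = 0.00121), by limma on log2(TPM + 1) (adjusted p = 0.0397) and by edgeR with all 9 libraries in the fit (adjusted p = 0.0319), but not by edgeR with RLE size factors (adjusted p = 0.0619). This is a Log2FC above -1, so AKR1B1 met the adjusted p of the study's DEG criteria with the block but not their Log2FC. The group accounted for 86.9% of the sum of squares of AKR1B1 over the 9 libraries and the replicate number for 4.12%, against medians of 29.9% and 32.0% over all genes tested. The summed epithelial markers, mostly KRT8 and KRT19, moved the other way between CYST and MAT, although KRT18 and FOXA2 overlapped. The summed stromal markers overlapped (2225 to 4798 TPM in CYST and 1191 to 3742 TPM in MAT). Among them, VIM was higher in MAT without overlap (452 to 796 against 238 to 312 TPM). PDGFRB was lower in MAT without overlap (0.209 to 0.662 against 0.80 to 1.19 TPM), and the other stromal markers overlapped. The part of the markers in the AKR1B1 difference was not tested. AKR1B1 belongs to a family of close copies, and how reads shared between copies were counted is not given in the sources used here.

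Over the 9 libraries, the genes whose log2 CPM, counts scaled to library size, correlated most with those of AKR1B1 were CRTAP (Pearson's r = 0.976), TTI2 (r = 0.965) and VMP1 (r = 0.96), among 12858 genes. These libraries share their group and replicate structure, so the values describe the likeness of the patterns and were not tested.

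PTGES3 (ENSBTAG00000017967, chromosome 5 from 56760745 to 56782191, plus strand) encodes cytosolic prostaglandin E synthase, also known as the HSP90 co-chaperone p23. It had 691, 689.6 and 631 TPM in CYST. In MAT it had 409, 565 and 537 TPM, and in MAT + COL 514, 584 and 548 TPM. As for AKR1B1, every CYST library was above every library with EGF, but the distance was smaller. The Log2FC of MAT over CYST was -0.42 (SE 0.20, edgeR adjusted p = 0.273), and with the block -0.44 (SE 0.18, adjusted p = 0.154).

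PTGES (ENSBTAG00000019453, chromosome 11 from 100121986 to 100133453, minus strand) encodes the inducible, microsomal prostaglandin E synthase. Its levels were 12.7, 9.29 and 75.7 TPM in CYST, 19.9, 70.9 and 52.8 TPM in MAT and 20.1, 88.9 and 38.6 TPM in MAT + COL. The same-numbered libraries did not move one way. MAT was 1.57 and 7.63 times CYST in replicates 1 and 2 and 0.698 times CYST in replicate 3, where the CYST library was the highest of its group. The Log2FC of MAT over CYST was 0.42 (SE 0.87, edgeR adjusted p = 0.831), and the sign turned without CYST replicate 2 (-0.024) and without replicate 2 of both groups (-0.43). Without CYST replicate 3 it was 2.23 (edgeR adjusted p = 0.0884). With the block and all pairs it was 0.96 (SE 0.66, edgeR adjusted p = 0.387). The blocked fit without replicate 3 of both groups dropped the only pair in which MAT was lower, so its p-value cannot count as evidence. It gave 1.95 (edgeR adjusted p = 0.0437). That setting was added after the data had been seen, and it called 15.3% of all genes tested.

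The 2 cyclooxygenase genes followed the replicate number more than the group, and in opposite directions. PTGS1 (ENSBTAG00000006716, chromosome 11 from 93225093 to 93262105, plus strand), which encodes the constitutive enzyme, had 63.8, 16.5 and 9.79 TPM in CYST. It had 47.7, 10.2 and 5.96 TPM in MAT and 67.3, 14.5 and 6.71 TPM in MAT + COL. In each group replicate 1 was highest and replicate 3 lowest. PTGS2 (ENSBTAG00000014127, chromosome 16 from 67728006 to 67735629, minus strand), which encodes the inducible enzyme, had 49.8, 52.6 and 859 TPM in CYST. It had 76.4, 159 and 1196 TPM in MAT and 115, 263 and 728 TPM in MAT + COL. Replicate 3 was highest in each group, and no library of replicates 1 and 2 came above 263 TPM.

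The replicate number was tested as a term beside the group over the 9 libraries, a test added after the values had been seen. PTGS1 and PTGS2 were 2 of 8 tested genes called by it, where 9.92% of all 12858 genes tested were called. PTGS1 was lower in replicate 3 than in replicate 1 by a Log2FC of -2.79 (edgeR adjusted p = 0.000154), and the replicate number accounted for 95.0% of its sum of squares. PTGS2 was higher in replicate 3 by a Log2FC of 3.91 (edgeR adjusted p = 0.00156), and the replicate number accounted for 85.6%. For the other 6 genes the adjusted p was between 0.150 and 0.604 and the share between 4.12% and 57.2%. The summed stromal markers were also highest in replicate 3 of each group, at 4798, 3742 and 4249 TPM against 1191 to 3045 TPM in the other libraries, and the part they have in the PTGS1 and PTGS2 levels was not tested.

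**Figure D2:**
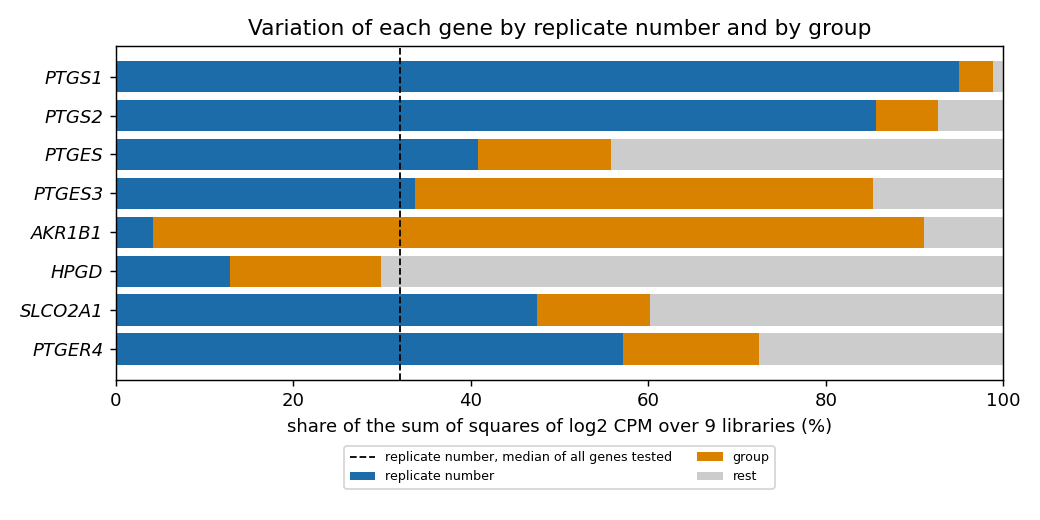
Share (%) of the sum of squares of log2 CPM over 9 libraries that the replicate number (blue), the group (orange) and the rest (grey) account for, 1 bar per gene; the dashed line is the median share of the replicate number over all genes tested, 32.0%. PTGS1 (95.0%) and PTGS2 (85.6%) lie far to the right of the line, and AKR1B1 (4.12%) far to the left.

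Against that spread, neither cyclooxygenase gene passed the test between MAT and CYST. PTGS1 had a Log2FC of -0.49 (SE 0.86, edgeR adjusted p = 0.802) without the block and -0.61 (SE 0.19, adjusted p = 0.0782) with it. Within same-numbered libraries MAT was 0.749, 0.620 and 0.608 times CYST. PTGS2 had a Log2FC of 0.42 (SE 1.35, edgeR adjusted p = 0.894) without the block and 0.88 (SE 0.27, adjusted p = 0.0811) with it, and MAT was 1.53, 3.03 and 1.39 times CYST in the 3 pairs. So PTGS1 was lower and PTGS2 higher with EGF in 3 of 3 pairs, which held for 49.8% of all genes tested in one direction or the other. When all 9 libraries were fitted with the block, the adjusted p of PTGS1 was 0.0494 (Log2FC -0.58). Without the block, the sign of PTGS1 turned when CYST replicate 1 was left out (0.67), and that of PTGS2 when CYST replicate 1 (-0.041), CYST replicate 2 (-0.042) or MAT replicate 3 (-1.66) was left out. The blocked fit without replicate 3 of both groups gave PTGS2 a Log2FC of 1.20 (edgeR adjusted p = 0.0158). That setting was added after the data had been seen, and it called 15.3% of all genes tested.

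HPGD (ENSBTAG00000025942, chromosome 8 from 6787675 to 6824508, minus strand) encodes 15-hydroxyprostaglandin dehydrogenase, which inactivates prostaglandins E2 and F2α. Its levels were 63.9, 52.8 and 133 TPM in CYST, 35.1, 72.4 and 46.7 TPM in MAT and 72.0, 106 and 43.6 TPM in MAT + COL. The groups overlapped, and the library with the highest level was replicate 3 in CYST and replicate 2 in both groups with EGF. The Log2FC of MAT over CYST was -0.78 (SE 0.46, edgeR adjusted p = 0.391), with MAT at 0.548, 1.37 and 0.352 times CYST in same-numbered libraries. With the block the Log2FC was -0.66 (SE 0.39, edgeR adjusted p = 0.314). Leaving out replicate 2 of both groups dropped the only pair in which MAT was higher, so that p-value cannot count as evidence. There the blocked fit gave a Log2FC of -1.27 (edgeR adjusted p = 0.0264). This setting was added after the data had been seen, and it called 5.11% of all genes tested.

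SLCO2A1 (ENSBTAG00000001324, chromosome 1 from 135336789 to 135426546, plus strand) encodes the prostaglandin transporter that takes prostaglandins up into cells. It had 9.36, 7.13 and 9.51 TPM in CYST, the narrowest spread of its groups. It had 38.7, 32.4 and 4.74 TPM in MAT and 36.4, 29.4 and 2.88 TPM in MAT + COL. Replicates 1 and 2 with EGF lay above every CYST library, while replicate 3 with EGF lay below every CYST library, in both MAT and MAT + COL. In same-numbered libraries MAT was 4.14, 4.54 and 0.498 times CYST, and MAT + COL was 3.88, 4.12 and 0.303 times CYST. The Log2FC of MAT over CYST was 1.49 (SE 0.64, edgeR adjusted p = 0.237) without the block and 1.18 (SE 0.65, adjusted p = 0.285) with it. Leaving out replicate 3 with EGF, which lay below every CYST library, changed the call. This dropped the libraries that went the other way, so the p-values without replicate 3 cannot count as evidence of a rise. Without MAT replicate 3 the Log2FC was 1.98 (edgeR adjusted p = 0.0388, with 1% of all genes tested called). Without replicate 3 of both groups it was 2.19 (adjusted p = 0.0197, with 2.46% of all genes tested called). The last setting was added after the values had been seen. In MAT + COL against CYST the Log2FC was 1.79 without MAT + COL replicate 3 (edgeR adjusted p = 0.037) and 1.98 without replicate 3 of both groups (adjusted p = 0.0242). Of all genes tested, these fits called 1.46% and 4.25%.

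Both receptors of the list had few reads. PTGER4 (ENSBTAG00000014972, chromosome 20 from 33747133 to 33759226, minus strand) encodes the prostaglandin E2 receptor EP4 and had 9 to 34 reads per library. Its levels were 1.94, 0.428 and 2.43 TPM in CYST, 1.54, 0.533 and 1.07 TPM in MAT and 0.551, 0.579 and 1.18 TPM in MAT + COL. The groups overlapped, and the Log2FC of MAT over CYST was -0.71 (SE 0.83, edgeR adjusted p = 0.686). PTGFR (ENSBTAG00000015902, chromosome 3 from 66128213 to 66191870, minus strand), which encodes the prostaglandin F2α receptor, had 2 reads in CYST replicate 2, 5 reads in MAT replicate 2 and 0 reads in the other 7 libraries. Its counts were too low for the filter, and it was not tested. A count of 0 allows up to 3 reads, which is 0.167 to 0.457 CPM in these libraries, for counting error only, so a difference in PTGFR was not detectable at this depth.

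**Figure D3:**
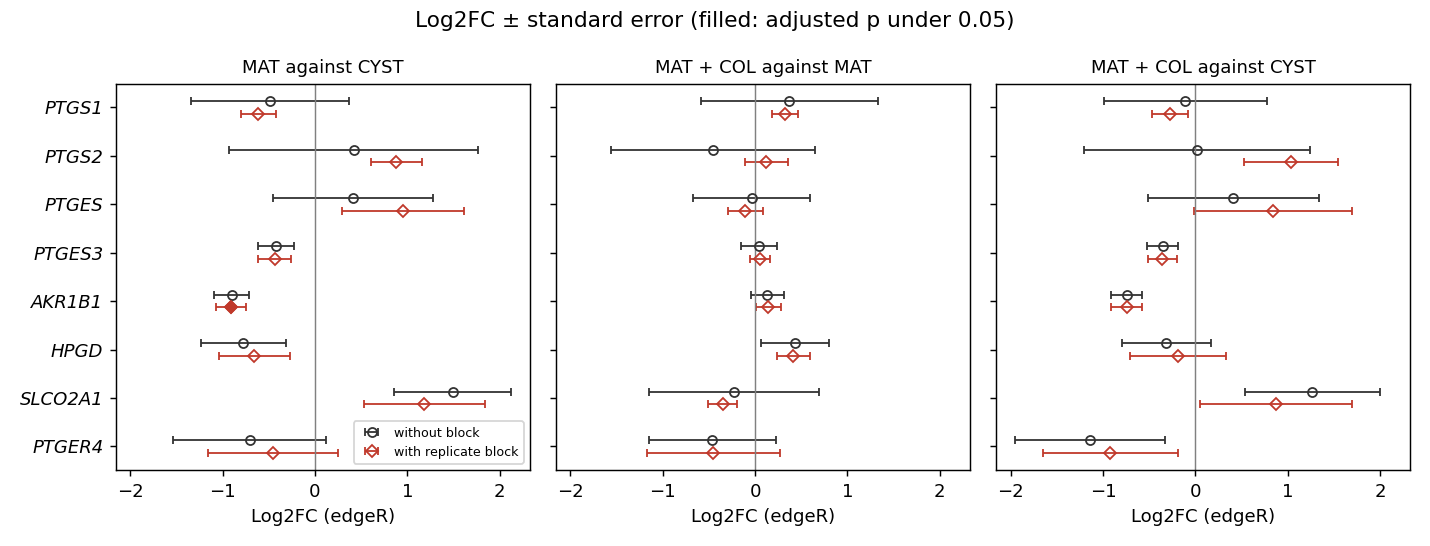
Log2FC from edgeR (points) with its standard error (bars) for 8 prostaglandin genes in the 3 comparisons, without (black circles) and with (red diamonds) the replicate number as a block; a filled symbol has an adjusted p under 0.05. The only filled symbol is AKR1B1 in MAT against CYST with the block (-0.91), and the standard errors of PTGS1 and PTGS2 shrink from 0.86 and 1.35 to 0.19 and 0.27 there.

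Between MAT + COL and MAT, which asks what collagen I changed in the presence of EGF, no prostaglandin gene passed the test. Of the 8 genes tested, 0 passed an adjusted p of 0.05 in either fit of edgeR (0% of the 12470 genes tested). At an unadjusted p under 0.05 the number was 0 without the block (0.409% of all genes tested) and 3 with it (4.96% of all genes tested), and DESeq2 also called 0. No TPM range was separate between the groups, which held for 3.57% of all genes tested. The 3 genes with an unadjusted p under 0.05 in the blocked fit were PTGS1 (Log2FC 0.33, SE 0.14), HPGD (0.42, SE 0.18) and SLCO2A1 (-0.35, SE 0.16), each with an adjusted p of 0.955 from edgeR. PTGS1 was higher with collagen I in 3 of 3 same-numbered pairs, at 1.41, 1.42 and 1.13 times MAT. SLCO2A1 was lower in 3 of 3 pairs, at 0.939, 0.908 and 0.607 times MAT. Of all genes tested, 28.3% moved one way in 3 of 3 pairs. AKR1B1 had a Log2FC of 0.13 (SE 0.18, edgeR adjusted p = 1), with MAT + COL at 1.32, 1.35 and 0.884 times MAT. PTGS2 had a Log2FC of -0.46 (SE 1.10, edgeR adjusted p = 1) without the block, and the blocked fit gave 0.12 (SE 0.23), so its sign depended on the fit. The median Log2FC of the 8 genes was 0.0050, and that of all genes tested was -0.00054.

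The comparison of MAT + COL with CYST shares its CYST libraries with MAT against CYST and its MAT + COL libraries with the collagen I comparison, so it is no independent repeat of either. Of the 8 genes tested, 0 were called by edgeR without the block (1.49% of the 12509 genes tested) and 0 with it (5.26% of all genes tested), with 1 at an unadjusted p under 0.05 in each fit (21.7% and 26.3% of all genes tested). AKR1B1 had a Log2FC of -0.74 (SE 0.17, edgeR adjusted p = 0.0674) without the block and the same value with it (SE 0.17, adjusted p = 0.0573), beside -0.90 and -0.91 in MAT against CYST. DESeq2 gave AKR1B1 an adjusted p of 0.00122 here and 0.00121 in MAT against CYST. Side by side without the block, the Log2FC against CYST was -0.42 in MAT and -0.35 in MAT + COL for PTGES3, 1.49 and 1.27 for SLCO2A1, -0.78 and -0.31 for HPGD, and -0.71 and -1.14 for PTGER4. None of these 4 genes was called in either. AKR1B1 and PTGES3 had TPM ranges that did not overlap between MAT + COL and CYST (24.7% of all genes tested did not overlap, and 10.3% were lower without overlap).

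Ratios of TPM within a library set genes of the pathway against each other. They were compared by 9 two-sided exact permutation tests of the group means, which cannot give a p under 0.1 with 3 libraries against 3. The ratio of PTGES to AKR1B1, an E synthase over an F synthase, was 0.0162, 0.0118 and 0.101 in CYST, 0.0462, 0.197 and 0.114 in MAT and 0.0353, 0.183 and 0.0944 in MAT + COL. On the log2 scale it averaged -5.22 ± 1.67 (SD, n = 3) in CYST and -3.30 ± 1.06 (SD, n = 3) in MAT, a difference of 1.92 (exact permutation test, p = 0.2, adjusted p = 0.788). The ratio was higher with EGF in 3 of 3 same-numbered pairs for MAT and in 2 of 3 for MAT + COL, where replicate 3 was lower than in CYST. In every library the level of AKR1B1 was above that of PTGES. The ratio leaves out other synthases. Among these, the E synthase PTGES3 was lower in every library with EGF than in any CYST library. The F synthase PRXL2B was higher in every library with EGF than in any CYST library. CBR1, a carbonyl reductase listed with the other synthases, went the other way. It was lower in every library with EGF (5.20 to 7.41 TPM against 10.9 to 14.8 TPM in CYST).

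The ratio of PTGS2 to PTGS1 covered a wider range than any difference between groups. It was 0.782, 3.19 and 87.7 in CYST, 1.60, 15.6 and 200.9 in MAT and 1.71, 18.1 and 108.5 in MAT + COL, so PTGS2 was the higher of the pair in all libraries but CYST replicate 1. Its log2 mean was 2.59 ± 3.50 (SD, n = 3) in CYST and 4.10 ± 3.49 (SD, n = 3) in MAT (exact permutation test, p = 0.6, adjusted p = 0.788). The ratio of HPGD, the inactivating enzyme, to both cyclooxygenases together was 0.563, 0.764 and 0.153 in CYST, 0.282, 0.427 and 0.0389 in MAT and 0.395, 0.383 and 0.0593 in MAT + COL. It was lowest in replicate 3 of every group, and its log2 means of -1.31 ± 1.23 (SD, n = 3) in CYST and -2.58 ± 1.85 (SD, n = 3) in MAT had an exact permutation p = 0.5 (adjusted p = 0.788). Within same-numbered libraries, PTGS2 over PTGS1 was higher and HPGD over the cyclooxygenases lower with EGF in 3 of 3 pairs, for MAT and for MAT + COL. The exact permutation test within pairs gave p = 0.25 for each of these, the smallest it allows with 3 pairs. For the tests of MAT + COL the p-values were between 0.3 and 1.

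**Figure D4:**
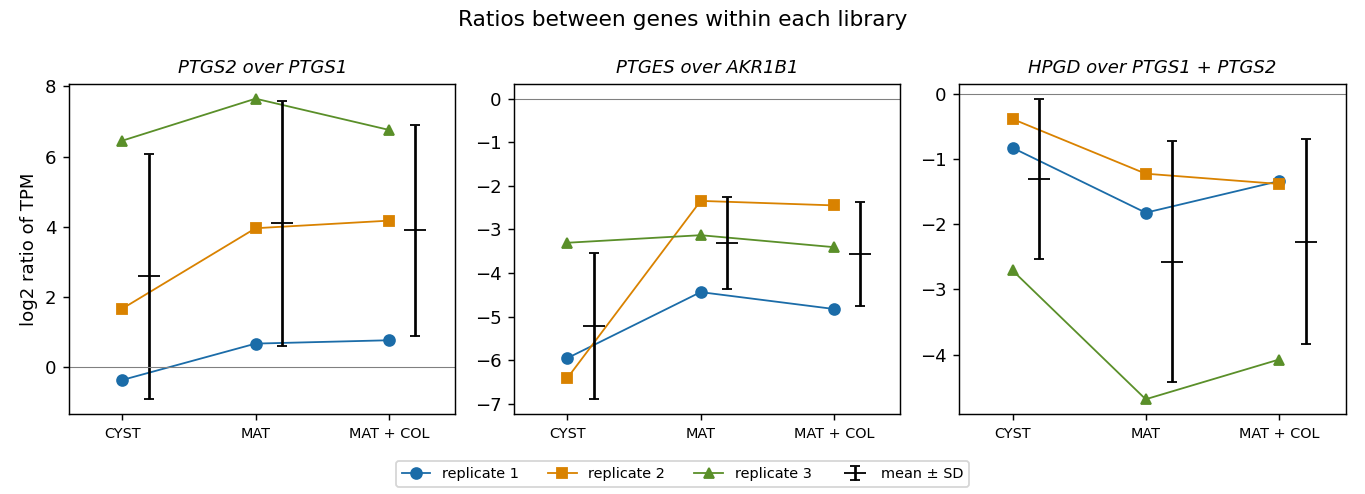
Log2 ratios of TPM within each library for PTGS2 over PTGS1, PTGES over AKR1B1, and HPGD over PTGS1 plus PTGS2, in the 3 groups; points are libraries joined by replicate number, and bars are the mean ± SD of 3 libraries. Replicate 3 is the top line for PTGS2 over PTGS1 (6.46 to 7.65) and the bottom line for HPGD over the cyclooxygenases (-4.69 to -2.71) in each group.

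Further genes of the pathway were taken from a list of 45 symbols, of which 39 were found. Of these, 29 could be tested between MAT and CYST. Without the block 0 were called (1.79% of all genes tested), with 6 at an unadjusted p under 0.05 (20.7% of all genes tested). With the block 3 were called, where 10.6% of all genes tested were called in either direction. All 3 were lower with EGF, and 5.67% of all genes tested were called lower. The median Log2FC of the 29 genes was -0.17. In MAT + COL against CYST, 1 of 30 was called, lower, in either fit. Of all genes tested, 0.815% were called lower without the block and 2.58% with it, or 1.49% and 5.26% in either direction. Between MAT + COL and MAT, 0 of 31 were called in either fit.

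The genes called were ACSL4, LPCAT3 and SLCO4A1. ACSL4, which attaches coenzyme A to arachidonic acid and so feeds it back to membrane lipids, had 453, 279 and 339 TPM in CYST, 127, 102 and 184 TPM in MAT and 186, 127 and 138 TPM in MAT + COL. Every CYST library was above every library with EGF. Its Log2FC was -1.38 in MAT against CYST (SE 0.30, edgeR adjusted p = 0.0616; with the block -1.40 and 0.00916). In MAT + COL against CYST it was -1.33 (SE 0.24, edgeR adjusted p = 0.0476; with the block -1.30 and 0.0190). That call without the block was lost when any 1 of the 6 libraries was left out. LPCAT3, which returns polyunsaturated acyl chains to phospholipids, fell in the blocked fit of MAT against CYST by 0.74 on the log2 scale (SE 0.16, edgeR adjusted p = 0.0328, and 0.111 without the block). SLCO4A1, an organic anion transporter, had a Log2FC of -1.35 there (SE 0.30, edgeR adjusted p = 0.0335, and 0.0773 without the block).

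The genes with the highest mean TPM in the 5 sublists were ANXA1, PRXL2B, PTGR1, SLCO4A1 and OXTR. ANXA1, which encodes annexin A1, an inhibitor of phospholipase A2, had 976, 1091 and 1855 TPM in CYST and 2123, 2908 and 2371 TPM in MAT. The groups did not overlap, and its Log2FC of 0.85 (SE 0.34) had an adjusted p of 0.210 from edgeR, or 0.0607 with the block. PRXL2B, which encodes prostamide/prostaglandin F synthase, had 184 to 237 TPM in CYST and 255 to 352 TPM in MAT (Log2FC 0.44, SE 0.22, edgeR adjusted p = 0.303). OXTR, the oxytocin receptor that triggers endometrial prostaglandin release, had 231 to 425 TPM in CYST and 300.0 to 470.1 TPM in MAT (Log2FC 0.17, SE 0.32, edgeR adjusted p = 0.813).

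PTGR1, a reductase that breaks down prostaglandin intermediates, followed the replicate number as PTGS1 did. It had 228, 107 and 35.8 TPM in CYST, 237, 145 and 36.6 TPM in MAT and 266, 165 and 42.7 TPM in MAT + COL. The term for the replicate number was called for 8 of 31 further pathway genes tested, beside 9.92% of all genes tested, PTGR1 among them (Log2FC of replicate 3 over replicate 1 of -2.45, edgeR adjusted p = 0.000379). PLA2G4A, the cytosolic phospholipase A2 that frees arachidonic acid, was higher in replicate 3 by 1.85 (edgeR adjusted p = 0.00167), as was PTGDS, a prostaglandin D synthase, by 2.41 (adjusted p = 0.00146). These last 2 genes were chosen after their values were seen.

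**Figure D5:**
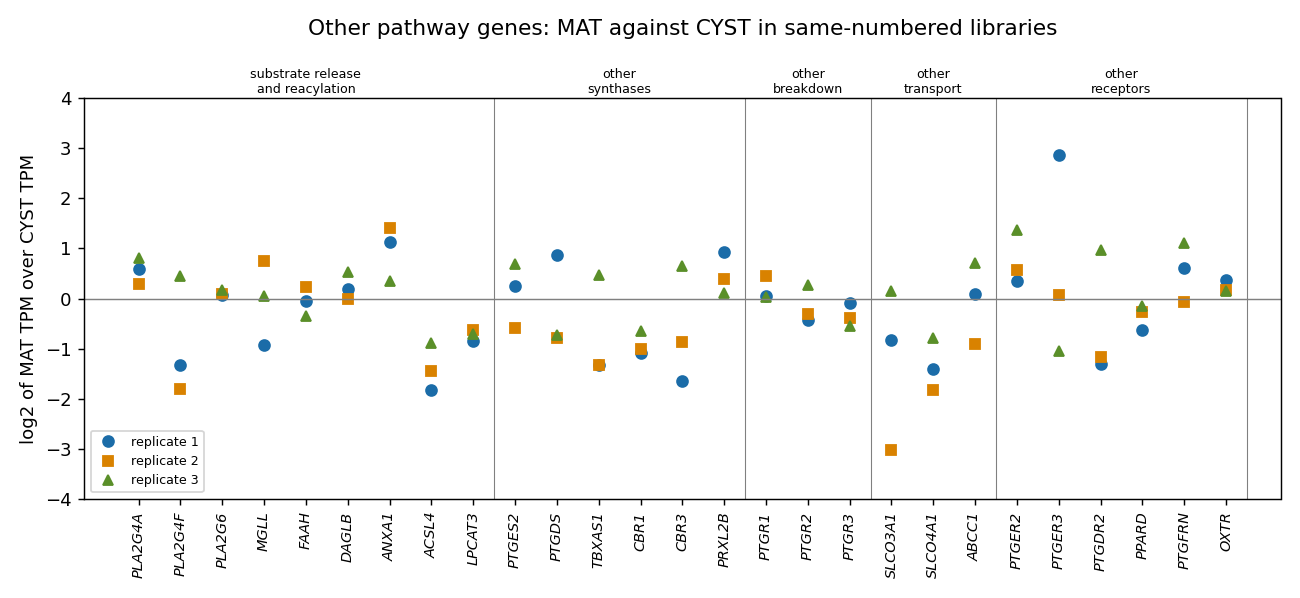
Log2 ratio of MAT to CYST TPM in libraries with the same replicate number (1 symbol per number) for the 27 of 29 tested further pathway genes that had reads in all 6 libraries, ordered by role; 0 is no difference. ACSL4, LPCAT3 and SLCO4A1 lie below 0 in 3 of 3 pairs, ANXA1 lies above 0 in 3 of 3, and several receptors and synthases have symbols on both sides of 0.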

How the data were processed

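RNA-seq on day 5 covered 9 libraries of bovine uterine gland fragments, 3 each of CYST, MAT and MAT + COL. The sample titles gave the group and replicate number, and the study's methods gave the dose of EGF. Libraries were made with the SMART-Seq HT PLUS Kit, which does not mark the strand. Trimmed reads were aligned by the authors to ARS-UCD2.0 in CLC Genomics Workbench 25.0.1. The authors deposited raw counts of reads per gene, and TPM values, which are scaled to gene length and to the library. The annotation release and the handling of reads shared between genes are not given in the sources used here. A count of 0 was read as allowing 3 reads. Reads carry no molecular identifiers, so this covers counting error only.

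Genes were matched by symbol, and identifiers and positions were those that the authors deposited with the counts. Counts were compared in R 4.3.3 with edgeR 4.0.16: filterByExpr with a minimum count of 10, TMM, and the quasi-likelihood test on 6 libraries per comparison. The p-values were adjusted by Benjamini-Hochberg over all genes tested. DEG criteria of the study were an adjusted p under 0.05, a Log2FC past 1 in size and a TPM above 1. The methods name no pairing, so the replicate number was a block in an alternative fit. After subtraction of the group means, libraries of the same number correlated across genes at 0.329 to 0.437 between MAT and CYST, 0.471 to 0.687 between MAT + COL and MAT, and 0.278 to 0.350 between MAT + COL and CYST, against at most 0.111 for other numbers, so the numbers were taken to pair the libraries. This pairing comes from the data, because the labels do not say what a number marks. The study speaks of individuals among the MAT and MAT + COL samples, without naming the numbers. Shares of the sum of squares were computed on log2 CPM with a prior count of 2. Ratios of TPM were compared by exact permutation tests over libraries.

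The genes and lists were chosen with earlier results of these data known. The genes named were the listed prostaglandin genes, each further pathway gene called in any comparison in either fit, the one with the highest mean TPM of each sublist, and the 3 genes most correlated with the prostaglandin gene of the smallest p. PLA2G4A, PTGDS and CBR1 were named outside this rule, after their values were seen. Alternatives were DESeq2 1.42.0, RLE size factors, no filter, all 9 libraries, limma 3.58.1 on log2(TPM + 1) and log2(TPM + 0.1), and leaving out each library. Leaving out both libraries of a replicate number was added after the data had been seen. The edgeR script was tested on simulated data. Plots used matplotlib 3.10.9 (Python 3.11.15).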

Additional observations from a re-analysis of the deposited data

How the results depend on the processing

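Depth limited PTGFR and PTGER4, which had at most 5 and 34 reads per library. With 3 libraries per group the exact permutation tests of ratios could not pass 0.05, so their p-values say nothing about stability. For MAT against CYST, where edgeR called 0 of 8 prostaglandin genes and 0 of 29 further pathway genes, the replicate block gave 1 and 3, all 9 libraries in the fit 1 and 2, all 9 with the block 2 and 5, DESeq2 1 and 4, and limma 1 and 1 with either pseudocount. Without the filter, 1 further pathway gene was called, and RLE size factors changed neither count. In the fits with 1 or 2 prostaglandin genes called, AKR1B1 was called, with PTGS1 beside it in the fit of all 9 libraries with the block. Of all genes tested, the block called 10.6%, DESeq2 10.6%, all 9 libraries 4.51%, all 9 with the block 16.5%, and limma 1.98% and 1.75%. AKR1B1 was not called with RLE size factors or without the filter. Its Log2FC ranged from -1.01 to -0.80 when libraries were left out.

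For MAT + COL against CYST, where edgeR called 0 and 1, all 9 libraries gave 1 and 2, all 9 with the block 1 and 5, and DESeq2 1 and 2 (4.67%, 15.8% and 12.2% of all genes tested). For MAT + COL against MAT no alternative called a gene of either list. The replicate block turned the sign of PTGS2 in that comparison from -0.46 to 0.12, as did all 9 libraries with the block (0.24) and limma (0.20 with either pseudocount). In the fits of 6 libraries, the block changed the call of AKR1B1 in MAT against CYST and of no other prostaglandin gene.

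When libraries were left out, the numbers called ranged from 0 to 1 prostaglandin genes in MAT against CYST and in MAT + COL against CYST, and from 0 to 2 and 0 to 1 further pathway genes. Of all genes tested, these fits called 0% to 2.46% in MAT against CYST and 0% to 4.25% in MAT + COL against CYST. The gene called without MAT replicate 3, MAT + COL replicate 3 or both replicate 3 libraries was SLCO2A1, whose contrary libraries were those of replicate 3 with EGF. With the block and 1 replicate number left out, the counts ranged from 0 to 4 prostaglandin genes and 0 to 6 further genes in MAT against CYST, and from 0 to 3 and 0 to 8 in MAT + COL against CYST, highest without replicate 3 (15.3% and 19.1% of all genes tested) and 0 without replicate 1 (0.289% and 0.996%). In MAT against CYST without replicate 3 the block called PTGS2 (Log2FC 1.20, edgeR adjusted p = 0.0158), PTGES (1.95, adjusted p = 0.0437), AKR1B1 and SLCO2A1, and in MAT + COL against CYST PTGS2 (1.76, adjusted p = 0.00683), AKR1B1 and SLCO2A1. Replicate 3 was the contrary pair for PTGES and SLCO2A1 in MAT, and for PTGS2 and SLCO2A1 in MAT + COL. Those calls therefore cannot count as evidence of a rise.

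The Log2FC ranges that crossed 0 when libraries were left out were, in MAT against CYST, -1.79 to 0.67 for PTGS1, -1.66 to 3.35 for PTGS2 and -0.43 to 2.23 for PTGES (from -0.024 with single libraries left out). In MAT + COL against MAT they were -0.99 to 1.71 for PTGS1, -1.47 to 1.64 for PTGS2, -0.77 to 0.36 for PTGES, -0.10 to 0.14 for PTGES3, -0.72 to 0.28 for SLCO2A1 and -0.96 to 0.09 for PTGER4. In MAT + COL against CYST they were -1.47 to 1.02 for PTGS1, -1.02 to 2.94 for PTGS2, -0.81 to 2.35 for PTGES (-0.36 to 2.22 with single libraries) and -0.99 to 0.61 for HPGD (up to 0.37 with single libraries). Without both libraries of a replicate number, signs turned for PTGES (0.19), PTGES3 (-0.0097) and PTGER4 (0.093) in MAT + COL against MAT and for PTGS2 in MAT + COL against CYST (-0.081 without replicate 1 and -0.32 without replicate 2). With the block and 1 replicate number left out, signs turned against the blocked fit of all pairs for PTGES (-0.059) and PTGER4 (0.054) in MAT against CYST, for PTGES (0.11), PTGES3 (-0.0094) and PTGER4 (0.086) in MAT + COL against MAT, and for PTGES (-0.34) and HPGD (0.59) in MAT + COL against CYST. PTGS2 in MAT + COL against MAT, positive in the blocked fit, was 0.57 without replicate 3. The differences in log2 ratio that crossed 0 were, for PTGES to AKR1B1, -0.82 to 0.38 in MAT + COL against MAT. For PTGS2 to PTGS1 they were -0.27 to 3.44 in MAT against CYST, -1.90 to 1.58 in MAT + COL against MAT and -0.16 to 3.24 in MAT + COL against CYST, and for HPGD to both cyclooxygenases -0.74 to 1.22 in MAT + COL against MAT. The causes were not tested.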
